A study of Drosophila melanogaster with 6 samples.

Results

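Basement membrane and collagen genes were followed in wing imaginal discs, the epithelial sacs of the larva that give rise to the wings of the adult. The genes were chosen by symbol, as 10 names that cover collagen IV (*Col4a1*, also called *Cg25C*, and *vkg*), the laminin trimer (*LanA*, *LanB1* and *LanB2*), perlecan (*trol*), nidogen (*Ndg*), *SPARC*, papilin (*Ppn*) and peroxidasin (*Pxn*). Of these, 9 were matched to a row among the 17478 genes of the count table, and *trol* was not analysed here. All 9 passed the expression filter of the test, as did 9408 genes in all.

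RNA was sequenced from 3 samples of discs that express *CycGΔP* and from 3 samples of control discs. The *CycGΔP* larvae carried the Gal4 driver *da-Gal4*, which is active throughout the larva, together with the *UAS-CycGΔP* transgene, which encodes Cyclin G without its PEST domain. The labels give this genotype both as *UAS-CycGΔP, da-Gal4/+* and as *da-Gal4/UAS-CycGΔP*. Control larvae were *da-Gal4/+*, so that both groups carried the driver and only the *CycGΔP* group carried the transgene. All were females of the third larval instar raised at 25°C without treatment, each sample was a pool of 150 discs, and the methods of the study describe the replicates of a genotype as independent crosses. Because the driver is ubiquitous, the transgene was also on in the other larval tissues, including those that make part of the matrix of the disc.

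A basement membrane is a thin sheet of extracellular matrix that lines the basal side of an epithelium. It is built from a laminin network and a collagen IV network, which nidogen and perlecan connect. In the *Drosophila* larva much of the collagen IV around the wing disc is not made by the disc but by the fat body, which secretes it into the haemolymph, and haemocytes also produce basement membrane proteins. In a bulk sample, fewer cells of a type and less RNA per cell cannot be told apart.

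The deposited counts summed to between 21853360 and 40059450 per library. Expression is given as CPM, which is the count scaled to a fixed library total after TMM normalization, and genes were compared with edgeR's quasi-likelihood test with Benjamini-Hochberg adjustment over all tested genes at 0.05. Of the 9408 tested genes, 134 passed (1.42%). The targeted gene, *CycG*, had 1022, 1012 and 900.2 CPM in *CycGΔP* discs against 722.6, 788.3 and 686.1 CPM in control discs. These groups did not overlap, but *CycG* itself did not pass the threshold (log2 fold change 0.42, edgeR adjusted p-value 0.0909). Markers of the disc epithelium, such as *sd*, *ap*, *hth* and *nub*, were detected in every library, and their summed level over 8 genes was between 2189 and 2623 CPM in *CycGΔP* discs and between 2010 and 2307 CPM in control discs. *CycGΔP* replicate 1 had the lowest summed level of haemocyte markers, although it was the lowest library for only 5 of 11 of them. Control replicate 1 stood apart by its high fat body markers.

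The values of *CycGΔP* and control discs overlapped for 8 of the 9 basement membrane genes, and only *SPARC*, which encodes a collagen-binding glycoprotein, was separate and lower in *CycGΔP* discs. None of the 9 genes passed the edgeR threshold, against 1.42% of all tested genes. At an unadjusted p-value under 0.05 there was 1 of 9, *SPARC*, against 14.7% of all tested genes (6.65% higher and 8.07% lower). Non-overlapping values were seen for *SPARC* alone, lower in *CycGΔP* discs (22.0% of all tested genes in either direction, 12.1% lower and 9.98% higher). DESeq2 called *SPARC* and no other of the 9 genes, both without and with a prior on fold changes. Of the genes that had an adjusted p-value in those fits (10246 and 9142), it called 5.47% and 5.84%. Limma voom called none of the 9, and 1.46% of all tested genes. The median log2 fold change of the 9 genes was -0.07, beside 0.012 over all tested genes. The 4 positive and 5 negative log2 fold changes spanned -0.70 to 0.33.

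**Figure D1:**
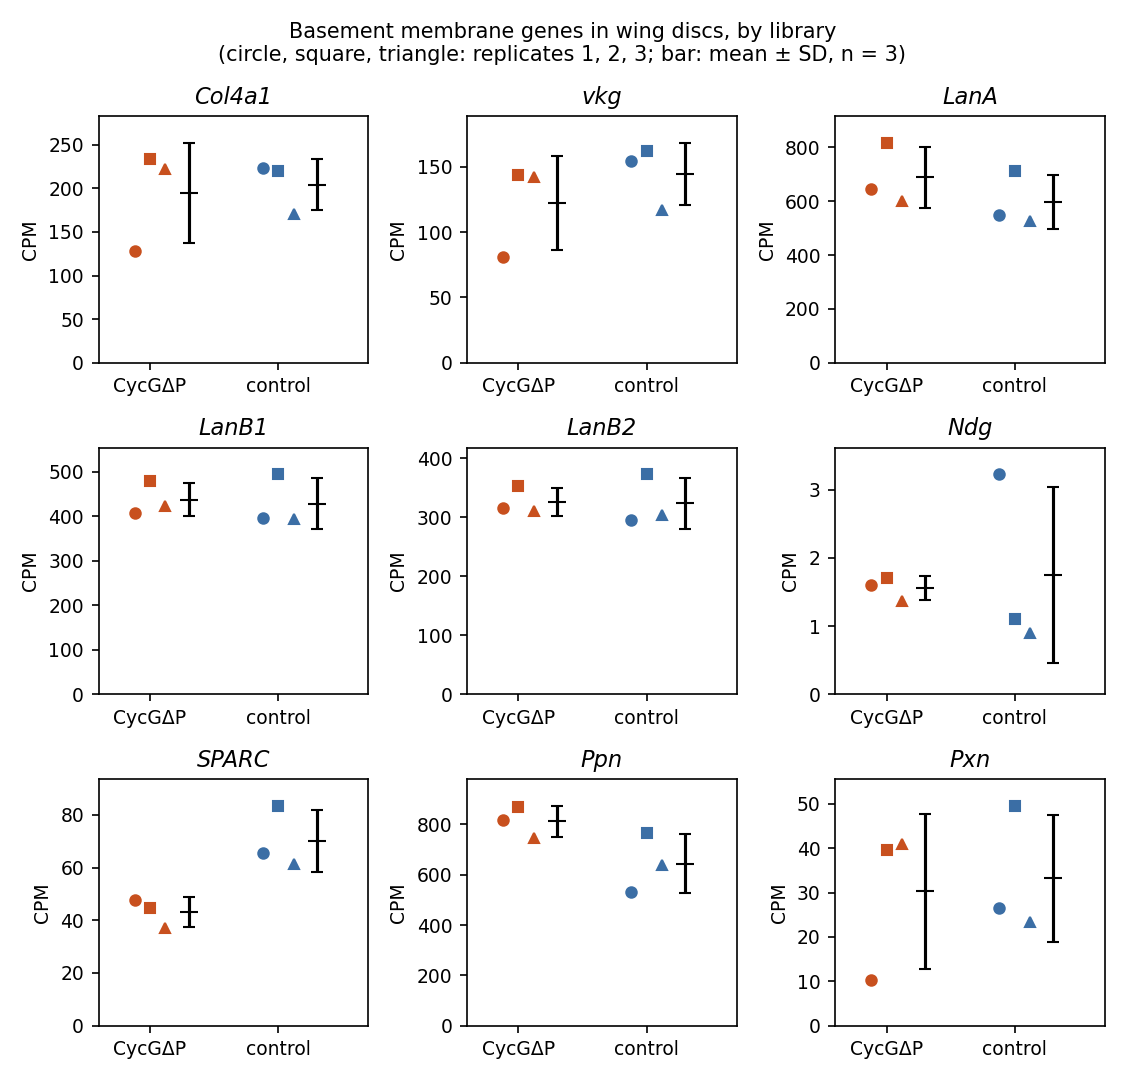
Expression of the 9 basement membrane genes in each library, in CPM on a linear axis from 0, with *CycGΔP* discs (orange) left of control discs (blue). Circles, squares and triangles are replicates 1, 2 and 3, and the bars show the mean ± SD (n = 3). The groups are separate for *SPARC* only, and *CycGΔP* replicate 1 is low for *Col4a1*, *vkg* and *Pxn*.

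Collagen IV of the fly is a trimer of 2 kinds of chain, the α1 chain encoded by *Col4a1* and the α2 chain encoded by *vkg* (viking). Both genes lie on chromosome 2L in opposite directions and 1417 bp apart. *Col4a1* (FBgn0000299) spans 5029609 to 5037279 on the plus strand of dm6 and *vkg* (FBgn0016075) spans 5012144 to 5028191 on the minus strand. Expression of *Col4a1* was 128.5, 233.8 and 221.7 CPM in *CycGΔP* replicates 1, 2 and 3, against 223.1, 219.6 and 170.1 CPM in control replicates 1, 2 and 3. The groups overlapped, and the lowest of all 6 values was that of *CycGΔP* replicate 1. The log2 fold change was -0.07 (95% interval -0.65 to 0.51, edgeR adjusted p-value 0.918), and without *CycGΔP* replicate 1 it was 0.15. For *vkg* the values were 80.84, 143.8 and 141.8 CPM in *CycGΔP* discs, against 154.4, 161.7 and 117.1 CPM in control discs. Here too *CycGΔP* replicate 1 was the lowest, and the other *CycGΔP* values lay inside the control range. The log2 fold change of *vkg* was -0.24 (95% interval -0.84 to 0.36, edgeR adjusted p-value 0.674), and without *CycGΔP* replicate 1 it was -0.02.

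The balance of the messengers of both collagen IV chains was measured within each library, as the ratio of *vkg* to *Col4a1* in CPM per kb of exon. Protein was not measured. This ratio was 0.597, 0.583 and 0.607 in *CycGΔP* discs, against 0.656, 0.698 and 0.653 in control discs. The groups did not overlap, and the library that was low for each gene alone (*CycGΔP* replicate 1) was not apart for the ratio. The means were 0.595 ± 0.0117 in *CycGΔP* discs and 0.669 ± 0.0254 in control discs (SD, n = 3 each), a difference of -0.0737. The exact permutation test, two-sided, gave p = 0.1, the smallest value that 3 samples against 3 allow, or 0.2 after Benjamini-Hochberg adjustment over the 4 ratios compared, so that this design could not pass 0.05. The difference stayed between -0.0818 and -0.0591 when each library was left out in turn.

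The laminins are trimers of an α, a β and a γ chain. *LanA* encodes an α chain, *LanB1* the β chain and *LanB2* the γ chain. *LanA* (FBgn0002526) lies on 3L from 6203831 to 6218022 (minus strand), *LanB1* (FBgn0261800) on 2L from 7811438 to 7820771 (plus strand) and *LanB2* (FBgn0267348) on 3L from 9614914 to 9623980 (plus strand). *LanA* was at 645.6, 816.9 and 602 CPM in *CycGΔP* discs, against 550.1, 711.9 and 526 CPM in control discs. Replicate 2 was the highest library of each group, and the ranges overlapped. This gave a log2 fold change of 0.21 (95% interval -0.18 to 0.59, edgeR adjusted p-value 0.57). With 1 library left out it lay between 0.07, without *CycGΔP* replicate 2, and 0.34, without control replicate 2. It was 0.13 without control replicate 1 and 0.12 without control replicate 3.

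The genes of both other chains showed smaller differences with narrower intervals. *LanB1* was at 407.5, 478 and 423.1 CPM in *CycGΔP* discs and 396.3, 494.2 and 392.4 CPM in control discs, with a log2 fold change of 0.03 (95% interval -0.25 to 0.31, edgeR adjusted p-value 0.931). *LanB2* was at 315.5, 353.8 and 310.4 CPM in *CycGΔP* discs and 294.7, 373.2 and 303.4 CPM in control discs, with a log2 fold change of 0.01 (95% interval -0.26 to 0.28, edgeR adjusted p-value 0.971). For both genes the highest library was control replicate 2, and every *CycGΔP* value lay within the control range. The sign of these near-zero estimates depended on the setting: it turned to -0.04 for *LanB1* without control replicate 1 and to -0.07 for *LanB2* without the same library.

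The proportions of the chain messengers were then taken within each library. The ratio of *LanB2* to *LanB1* in CPM per kb averaged 0.796 ± 0.0230 in *CycGΔP* discs and 0.804 ± 0.0158 in control discs (SD, n = 3 each, exact permutation p = 0.6, two-sided), and the groups overlapped. The messenger of the α chain stood higher relative to that of the γ chain in *CycGΔP* discs. There the ratio of *LanA* to *LanB2* was 1.04, 1.17 and 0.982, against 0.945, 0.965 and 0.878 in control discs. The groups did not overlap, with a difference of 0.133 (exact permutation p = 0.1, two-sided, the smallest possible, and 0.2 after adjustment over the 4 ratios). Without *CycGΔP* replicate 2 this difference was 0.0795. The ratio of *LanA* to *LanB1* was 0.851, 0.918 and 0.765 in *CycGΔP* discs and 0.746, 0.774 and 0.720 in control discs, and these ranges overlapped (exact permutation p = 0.2, two-sided, 0.267 after adjustment).

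**Figure D2:**
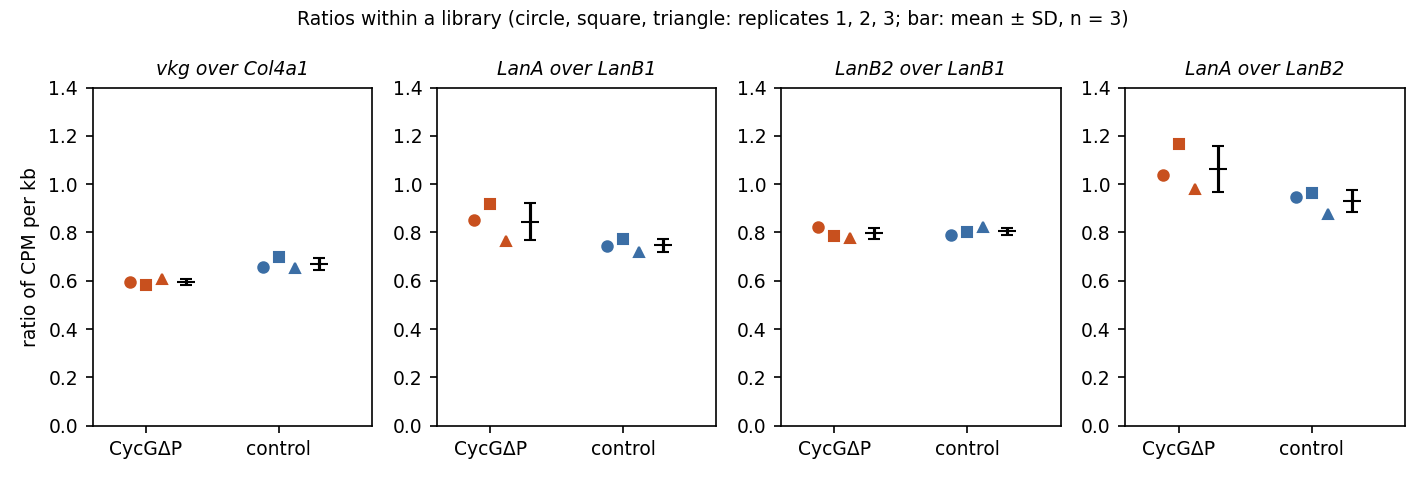
Ratios of basement membrane genes within a library, each as a ratio of CPM per kb of exon on a linear axis from 0, with *CycGΔP* discs (orange) left of control discs (blue). Circles, squares and triangles are replicates 1, 2 and 3, and the bars show the mean ± SD (n = 3). The ratio of *vkg* to *Col4a1* is at or below 0.607 in *CycGΔP* discs and at or above 0.653 in control discs, and the ratio of *LanB2* to *LanB1* overlaps.

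Nidogen binds both laminin and collagen IV. Its gene *Ndg* (FBgn0026403, 2R from 10313891 to 10322104, plus strand) was the least expressed of the 9, with 26 to 101 counts per library. Expression was 1.6, 1.71 and 1.36 CPM in *CycGΔP* discs, against 3.23, 1.10 and 0.906 CPM in control discs. Control replicate 1 was the highest library and the other control libraries were the lowest, so that the *CycGΔP* values fell between them. Its log2 fold change was -0.16 (95% interval -1.41 to 1.08, edgeR adjusted p-value 0.91) with all libraries and 0.61 without control replicate 1, which was not past the threshold either (edgeR adjusted p-value 0.44). In the annotation, 158 bp of *Ndg* exons overlap *CG34222* on the opposite strand, and since it is not stated whether strand was used in the counting, reads of that stretch are uncertain.

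SPARC is a secreted glycoprotein that binds collagen, and in *Drosophila* it is needed for collagen IV to be laid down in basement membranes. *SPARC* (FBgn0026562) lies on 3R from 26869238 to 26871995 (minus strand). Its expression was 47.8, 44.7 and 37.0 CPM in *CycGΔP* replicates 1, 2 and 3, against 65.4, 83.6 and 61.5 CPM in control replicates 1, 2 and 3. Every *CycGΔP* value lay below every control value, and the gap between the closest of them, *CycGΔP* replicate 1 and control replicate 3, was wider than the range within the *CycGΔP* group. The mean of *SPARC* in *CycGΔP* discs was 43.2 CPM (SD 5.54, n = 3), against 70.2 CPM in control discs (SD 11.8, n = 3), a ratio of 0.615. The log2 fold change was -0.70 (standard error 0.148, 95% interval -1.06 to -0.35).

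In edgeR *SPARC* stayed short of the threshold (unadjusted p-value 0.00245, adjusted p-value 0.0916) as in limma voom (adjusted p-value 0.0914), and it passed in DESeq2 without a prior (adjusted p-value 0.000796) and with one (0.00074). Its log2 fold change was between -0.85 and -0.57 under all 15 alternatives. With each library left out in turn, the edgeR adjusted p-value ranged from 0.0987 to 0.285. *SPARC* was thus lower in all 3 *CycGΔP* libraries than in any control library, whereas its call depended on the tool.

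Papilin is a secreted matrix glycoprotein related to the ADAMTS proteases, without being a protease itself. *Ppn* (FBgn0003137) lies on 3R from 28520665 to 28540324 (minus strand). Its expression was 819, 870.9 and 745.3 CPM in *CycGΔP* discs, against 530.2, 764.1 and 637.3 CPM in control discs. The ranges overlapped by a narrow margin, as only control replicate 2 was above the lowest *CycGΔP* library. The log2 fold change of 0.33 was the highest of the 9 genes (95% interval -0.01 to 0.67, edgeR unadjusted p-value 0.0526, adjusted p-value 0.345). Without control replicate 1, the lowest library, it was 0.19.

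Peroxidasin is a secreted peroxidase that makes the crosslinks between collagen IV molecules, and the fly gene is expressed in haemocytes. *Pxn* (FBgn0011828) lies on 3L from 2601455 to 2630064 (minus strand) and shares 151 exonic bp with *lncRNA:CR45660* on the same strand. Expression was 10.2, 39.6 and 40.9 CPM in *CycGΔP* discs, against 26.5, 49.6 and 23.4 CPM in control discs. *CycGΔP* replicate 1 was far below all other libraries, and the other *CycGΔP* values lay within the control range. For *Pxn* the log2 fold change was -0.14 (95% interval -1.69 to 1.42, edgeR adjusted p-value 0.938), the widest interval of the 9 genes. It was 0.27 without *CycGΔP* replicate 1 and 0.26 without control replicate 2, with no call in either case.

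**Figure D3:**
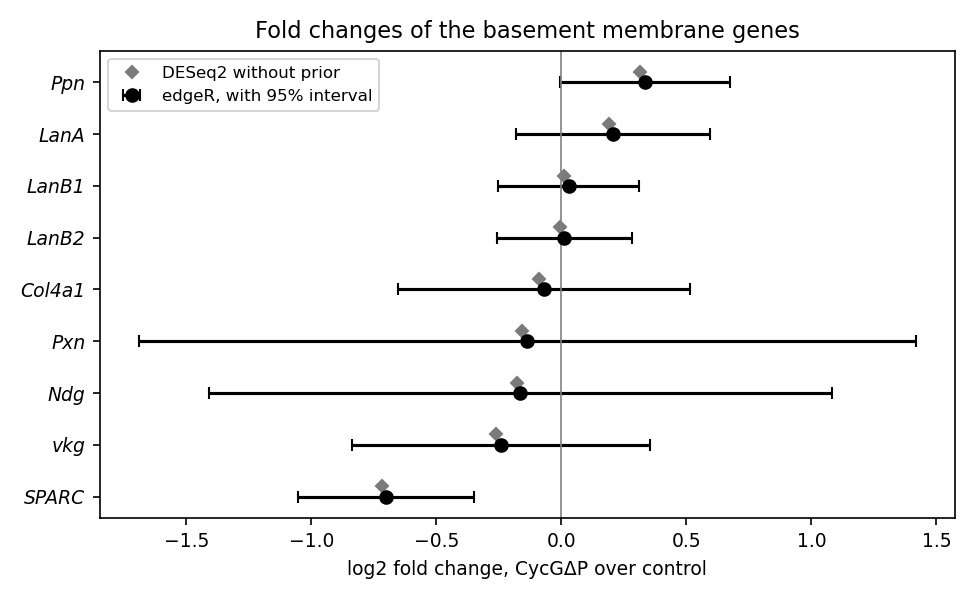
Log2 fold change of the 9 basement membrane genes, *CycGΔP* over control, on the x axis. Black points are edgeR estimates with 95% intervals and grey diamonds are DESeq2 estimates without a prior. Only the interval of *SPARC* (-1.06 to -0.35) lies wholly on one side of 0, and those of *Pxn* and *Ndg* are the widest.

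Levels were compared between genes per kb of exon. In *CycGΔP* discs the order of the mean level in CPM per kb was *Ppn* (85.1), *LanB1* (69.4), *LanA* (58.9), *LanB2* (55.2), *SPARC* (35.9), *Col4a1* (31.6), *vkg* (18.8), *Pxn* (5.08) and *Ndg* (0.324). In control discs it was *LanB1* (68.1), *Ppn* (67.5), *SPARC* (58.4), *LanB2* (54.7), *LanA* (51.0), *Col4a1* (33.1), *vkg* (22.2), *Pxn* (5.57) and *Ndg* (0.363). Among the first 5 genes of the control order, the ranges of neighbours over the control libraries overlapped. Each of the neighbouring pairs from *LanA* down to *Ndg* was separate. Compared within each control library, *Ppn* was always above *SPARC* and *LanB2* always above *LanA*. The order of *LanB1* and *Ppn*, and that of *SPARC* and *LanB2*, differed between control libraries. *SPARC* ranked 5 in *CycGΔP* discs against 3 in control discs, and *LanA* ranked 3 in *CycGΔP* discs against 5 in control discs. In both groups the laminin and papilin messengers lay above those of collagen IV by mean level per length, and nidogen was the lowest.

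Genes differed in how far their replicates spread. In *CycGΔP* discs the coefficient of variation of the CPM was 7.27% for *LanB2*, 7.78% for *Ppn*, 8.49% for *LanB1*, 29.6% for *Col4a1*, 29.3% for *vkg* and 57.4% for *Pxn*. In control discs it was 13.3% for *LanB2*, 18.2% for *Ppn*, 13.5% for *LanB1*, 14.5% for *Col4a1*, 16.6% for *vkg* and 43.2% for *Pxn*. For the other members it was 16.5% in *CycGΔP* and 17.0% in control discs for *LanA*, and 12.8% and 16.8% for *SPARC*. For *Ndg* it was 11.5% in *CycGΔP* discs and 73.7% in control discs, the largest of any member. The collagen IV genes and *Pxn* therefore spread more than the laminin β and γ chain genes in *CycGΔP* discs, through a single library. In *CycGΔP* replicate 1, *Col4a1* was at 56.4%, *vkg* at 56.6% and *Pxn* at 25.4% of the mean of *CycGΔP* replicates 2 and 3.

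Some markers of haemocytes were low in the same library, which was the lowest of all 6 for 5 of 11. *Hml* (hemolectin) was at 11.8, 103 and 61.4 CPM in *CycGΔP* discs, against 32.3, 52.8 and 25.7 CPM in control discs. In *CycGΔP* replicate 1 it was at 14.3% of the mean of replicates 2 and 3, and the phagocytic receptor genes *eater* and *NimC1*, named after their values were seen, were at 17.3% and 22.0%. The library was not the lowest for others, such as *crq*, at 39.4, 30.5 and 39.2 CPM in *CycGΔP* discs and 40.8, 42.1 and 40.9 CPM in control discs. *NimC2* was at 25.7, 29.1 and 34.6 CPM in *CycGΔP* discs and 31.6, 4.86 and 2.37 CPM in control discs. *He* was lower in control replicate 3 (2.93 CPM) than in *CycGΔP* replicate 1 (3.62 CPM). Both of these are named because of their values. The summed level of 11 haemocyte markers was 123, 287 and 365 CPM in *CycGΔP* discs and 223, 279 and 178 CPM in control discs, and none of the 11 was at 0 in all libraries. Between the groups none of the 10 tested haemocyte markers passed the edgeR threshold, against 1.42% of all tested genes. None had an unadjusted edgeR p-value under 0.05, against 14.7%. DESeq2 called none without and with the prior (5.47% and 5.84% of all genes with an adjusted p-value there), nor did limma voom (1.46%). The log2 fold changes of these markers were above 0 for 7 and below 0 for 3, with a median of 0.85. Over all 9408 tested genes, 4921 were above 0 and 4487 below. *Hml* was at 0.67, and those below 0 were the phenoloxidase genes *PPO1* (-0.33) and *PPO2* (-0.41) and the receptor gene *crq* (-0.18). The part of haemocytes in the levels of *Col4a1*, *vkg* and *Pxn* was not tested.

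**Figure D4:**
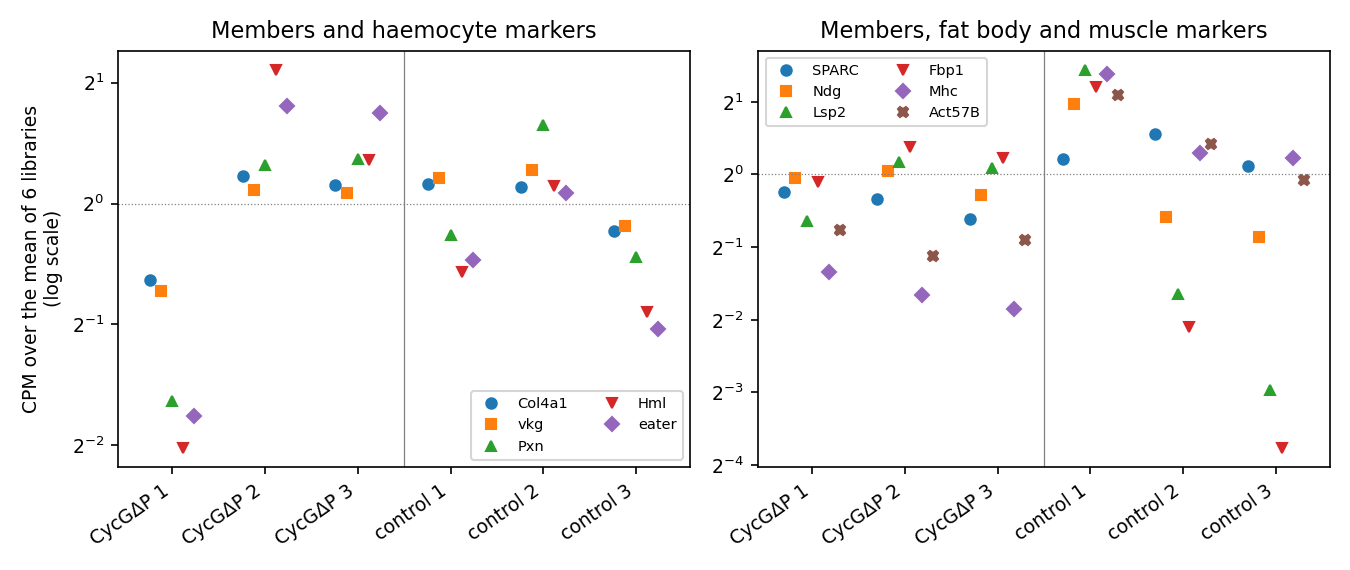
CPM of each gene over its mean in the 6 libraries, on a log axis, with the *CycGΔP* libraries left of the control libraries. The left panel shows *Col4a1*, *vkg* and *Pxn* with the haemocyte markers *Hml* and *eater*, all lowest in *CycGΔP* replicate 1. *Hml* and *eater* are among the 5 of 11 haemocyte markers that were lowest in that library, and the other markers of the list, not shown, were not. The right panel shows *SPARC* and *Ndg* with the fat body markers *Lsp2* and *Fbp1* and the muscle markers *Mhc* and *Act57B*, where *Ndg*, *Lsp2*, *Fbp1*, *Mhc* and *Act57B* are highest in control replicate 1 and *SPARC* is highest in control replicate 2.

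Fat body markers varied most between control libraries. Their summed level over 8 genes was 4687, 7873 and 7013 CPM in *CycGΔP* discs and 22890, 2222 and 743.1 CPM in control discs, and control replicate 1 was the highest library for 8 of 8. The most abundant were *Fbp1*, which encodes the receptor for larval serum protein, and the serum protein genes *Lsp1beta*, *Lsp1gamma* and *Lsp1alpha*. *Fbp1* was at 2890, 4045 and 3635 CPM in *CycGΔP* discs and 7147, 727 and 229.2 CPM in control discs. No fat body marker passed the edgeR threshold, against 1.42% of all tested genes. In control replicates 1, 2 and 3, *Col4a1* was at 223.1, 219.6 and 170.1 CPM and *vkg* at 154.4, 161.7 and 117.1 CPM. Both differed little between control replicates 1 and 2. Among the control libraries both were lowest in replicate 3, as the fat body sum was. Among the *CycGΔP* libraries both were lowest in replicate 1 (128.5 and 80.84 CPM), as the fat body sum also was. That sum of *CycGΔP* replicate 1 was nonetheless above those of control replicates 2 and 3, where *Col4a1* and *vkg* were higher. *Ndg* was highest in control replicate 1. The part of the fat body in these levels was not tested.

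Of 10 markers of differentiated muscle, 7 were lower in every *CycGΔP* library than in any control library, as *SPARC* was. Their summed level was 144, 146 and 120.5 CPM in *CycGΔP* discs and 373, 240 and 188 CPM in control discs. Over all tested genes, 12.1% were lower without overlap. DESeq2 called 7 of the markers without and with the prior (5.47% and 5.84% of all genes with an adjusted p-value in those fits). *Mhc*, which encodes muscle myosin heavy chain, fell by 2.34 on the log2 scale (edgeR adjusted p-value 0.0449) and was the only marker called by edgeR (1.42% of all tested genes). With 1 library left out its edgeR adjusted p-value ranged from 0.0172 to 0.233, and it passed the threshold only where control replicate 1 was the one left out. The call was also lost under upper-quartile normalization (0.0552), with no filter beyond 1 count (0.0566), with at least 10 counts in every sample (0.0521), in limma voom (0.126) and with the replicate block (0.105). No muscle or fat body marker was at 0 in all libraries. *Act57B* was at 26.6, 20.7 and 24.1 CPM in *CycGΔP* discs and 95.5, 60.3 and 42.5 CPM in control discs, *Mlc2* at 15.5, 12.9 and 11.2 CPM in *CycGΔP* discs and 51.5, 32.0 and 25.1 CPM in control discs. The groups overlapped for *sls*, the most abundant muscle marker, with a log2 fold change of -0.20, and for *Act87E* (-0.05) and *bt* (-0.50), both named because they were the other exceptions. Control replicate 1 was the highest library for 8 of the 10 markers but not for *SPARC*, which was highest in control replicate 2. Without control replicate 1 the log2 fold change of *SPARC* was -0.77, and the part of muscle cells in it was not tested.

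Markers of other cells of the disc had overlapping summed levels. The summed level of 6 markers of adult muscle precursors (*Mef2*, *stumps*, *htl* and *zfh1* being the most abundant) was between 262 and 278 CPM in *CycGΔP* discs and between 232 and 284 CPM in control discs. For 5 tracheal markers, led by the chitin deacetylase genes *verm* and *serp* and followed by *Gasp* and *trh*, it was between 1016 and 1229 CPM in *CycGΔP* discs and between 1014 and 1091 CPM in control discs. No gene of these lists or of the epithelium list passed the edgeR threshold, against 1.42% of all tested genes.

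The other genes of basement membrane biology were described through 4 lists set by function, with 46 genes named, 42 matched to the count table and 40 tested. None was called by edgeR in either direction, against 0.691% of all tested genes called higher and 0.733% called lower. At an unadjusted p-value under 0.05 there were 5 genes higher and 0 lower, against 6.65% and 8.07% of all tested genes. DESeq2 called 1 gene in each of its fits, against 5.47% and 5.84% of all genes with an adjusted p-value there. Limma voom called 0, against 1.46% of all tested genes. The 5 genes were *Sdc*, *ItgaPS4*, *Itgbn*, *Strat* and *stl*, of which all but *Sdc* are named because of their values. Log2 fold changes were above 0 for 28 and below 0 for 12, with a median of 0.12 beside 0.012 over all tested genes.

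Among 10 other matrix components tested, the median log2 fold change was 0.08. The most abundant was *mfas* (midline fasciclin), with a mean in *CycGΔP* discs of 297 CPM (SD 48.8, n = 3), against 280.0 CPM in control discs (SD 59.5, n = 3). *Tsp*, which encodes thrombospondin, had a log2 fold change of 0.08, and *wb*, the other laminin α chain gene of the fly, one of 0.31 (edgeR adjusted p-value 0.409). *Glt* (glutactin), a basement membrane glycoprotein gene, was at 31.3, 92.4 and 129 CPM in *CycGΔP* discs and 69.5, 53.1 and 28.0 CPM in control discs. Its lowest *CycGΔP* library was again replicate 1, and the ranges overlapped.

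Genes for the folding and secretion of collagen had log2 fold changes from -0.10 to 0.25, with a median of 0.13 over 8 tested genes. *Sec23* and *Sar1* encode parts of the COPII coat that carries cargo out of the endoplasmic reticulum, and had log2 fold changes of -0.02 and 0.12. *Crag* and *Rab8*, which act in polarized secretion, had log2 fold changes of 0.14 and -0.02. The largest shift in this list was 0.25, for *Strat* (edgeR adjusted p-value 0.153), a gene singled out here after its values were seen.

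Receptors and adhesion genes had a median log2 fold change of 0.10 over 15 tested. *Sdc*, which encodes the cell surface proteoglycan syndecan, was at 371, 449.5 and 395 CPM in *CycGΔP* discs and 362, 346 and 318 CPM in control discs. The groups did not overlap, and *Sdc* did not pass the threshold (log2 fold change 0.24, edgeR unadjusted p-value 0.0428, adjusted p-value 0.318). The glypican gene *dally* had a log2 fold change of 0.17, the dystroglycan gene *Dg* one of 0.11 and the integrin β gene *mys* one of 0.10.

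The integrin α gene *ItgaPS4* had the largest log2 fold change of the 40 genes and was named after its values were seen. Its expression was 1.83, 3.95 and 6.91 CPM in *CycGΔP* discs, against 0.352, 0.368 and 0.592 CPM in control discs. The groups did not overlap, and counts ranged from 11 to 198 per library. Its log2 fold change was 3.27 (edgeR adjusted p-value 0.0507, DESeq2 adjusted p-value 5.06e-06). The edgeR call was on the other side of the threshold with no filter beyond 1 count (adjusted p-value 0.0424), with at least 10 counts in every sample (0.0357) and without *CycGΔP* replicate 1 (0.0486). *ItgaPS4* was not called with RLE or upper-quartile normalization, with the replicate block or with any other single library left out. Limma voom did not call it either (adjusted p-value 0.16). In DESeq2 with the prior it was called with a log2 fold change of 0.835.

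Among the 7 tested genes of matrix remodelling the median log2 fold change was 0.30. The matrix metalloproteinase gene *Mmp1* was at 133.6, 100.7 and 130 CPM in *CycGΔP* discs and 115, 93.3 and 87.1 CPM in control discs, with a log2 fold change of 0.30 (edgeR adjusted p-value 0.405). *Mmp2*, the other metalloproteinase gene, had a log2 fold change of 0.31 (edgeR adjusted p-value 0.447) and *RECK*, which encodes an inhibitor of such proteases, one of 0.11. *AdamTS-B* was the only gene of the list with a negative value, -0.44 (edgeR adjusted p-value 0.386). The groups overlapped for all 4 of these genes.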

How the data were processed

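The authors purified polyadenylated RNA, made TruSeq Stranded mRNA libraries and sequenced single reads of 50 bp. They aligned these to dm6 with TopHat2 2.0.10, counted unambiguous reads per Ensembl gene and deposited whole-number counts without normalization, which were used here. The methods name the Ensembl BDGP5 annotation for the counting, which belongs to an earlier assembly than dm6, so the gene models behind the counts are uncertain, and whether strand was used is not given in the sources used here. The deposited table normalized by DESeq2 size factors was not used. Symbols were found for 17219 of the 17478 identifiers, and dm6 coordinates and exon lengths came from Ensembl release 115.

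Counts were normalized by TMM (factors between 0.963 and 1.03) and tested with edgeR 4.0.16 in R 4.3.3 (default expression filter by group, robust quasi-likelihood fit without covariates, Benjamini-Hochberg adjustment at 0.05). Ratios were compared with an exact permutation test. Alternatives used RLE or upper-quartile normalization, DESeq2 1.42.0 without and with a prior, limma 3.58.1 voom, no filter beyond 1 count or at least 10 counts in every sample, each library left out, and the replicate number as a block. The edgeR, DESeq2 and voom steps were tested on simulated data with 200 changed genes. Replicates of a group differed by more than sampling noise (chi-square of at least 40.3 per gene).

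Members and lists were chosen with earlier results of these data known. Named genes were all members and, from each list, every called gene and the most abundant genes up to 4 in all, with exceptions said in the text. Pdi, Tango1, scb, AdamTS-A and btl, as well as trol, were not analysed here, and no sequences were used.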

Additional observations from a re-analysis of the deposited data

How the results depend on the processing

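The main limits are 3 samples a group, the wide spread of *Pxn* and *Ndg*, and the few *Ndg* counts. No member was called by edgeR, whichever of RLE or upper-quartile normalization, other filters, the block or leaving out 1 library was used. Limma voom called none either, and DESeq2 called 1 (*SPARC*) without and with the prior. Of the related genes, 1 (*ItgaPS4*) was called by both DESeq2 fits, with no filter beyond 1 count, and with at least 10 counts in every sample, and 0 to 1 when 1 library was left out. *SPARC*, *LanA* and *Ppn* kept their sign under all 15 alternatives. RLE size factors kept 9 of 9 places of the order by mean level over all 6 libraries. That order could hardly change, because a size factor scales all genes of a library alike. The order within each group was not checked in this way. The sign turned for *LanB2* with DESeq2 without and with the prior (-0.005) and with no filter (-0.011), and for *Ndg* with voom (0.077). With each library left out in turn the log2 fold change ranged from -0.222 to 0.152 for *Col4a1*, -0.375 to -0.021 for *vkg*, 0.066 to 0.339 for *LanA*, 0.193 to 0.458 for *Ppn*, -0.79 to -0.571 for *SPARC*, -0.042 to 0.129 for *LanB1*, -0.07 to 0.111 for *LanB2*, -0.474 to 0.608 for *Ndg* and -0.419 to 0.272 for *Pxn*. Leaving out both replicate 1 libraries, chosen after seeing the data, called 2 related genes (*ItgaPS4* and *Tig*, named because of their values) and gave 0.206 for *Col4a1*, 0.015 for *vkg*, -0.046 for *LanB2*, 0.585 for *Ndg* and 0.122 for *Pxn*. The ratios with each library left out were also chosen after seeing the data. The cause of these shifts was not tested.

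The replicate numbers did not pair the samples: same-numbered samples correlated at -0.097, -0.126 and -0.122 across genes, and no *CycGΔP* sample correlated best with the control sample of its number. With the replicate block, 0 members and 0 related genes were called, the log2 fold change of *Ndg* turned to 0.069 and calls over all genes were 2, against 134 without the block.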

Other observations

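The mean profile of the 9 members across the 6 libraries, as centred log2(CPM+1), was -0.31, 0.18 and 0.01 in *CycGΔP* replicates 1, 2 and 3, against 0.05, 0.25 and -0.17 in control replicates 1, 2 and 3. It was lowest in *CycGΔP* replicate 1 and highest in control replicate 2. Only *Col4a1*, *vkg* and *Pxn* were themselves lowest in *CycGΔP* replicate 1, so the mean profile does not describe each member. Among 6306 genes outside the lists with a mean of at least 10 CPM, the 5 with the most similar profile by Pearson's r over the 6 libraries were *CG41099* (0.969), *Pde11* (0.967), *SMC6* (0.937), *CG42724* (0.936) and *Eph* (0.924). They spread less than the collagen IV genes: *Pde11*, which encodes a phosphodiesterase, was at 50.6, 63.7 and 54.7 CPM in *CycGΔP* discs and 58.2, 64.3 and 52.2 CPM in control discs. These values are a description of 6 libraries in which all genes share the same library sizes.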
